A study of Macaca mulatta with 39 samples.

Results

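The 40 genes described here are the cadherins and protocadherins that the array annotation names with a CDH or PCDH symbol, out of 14132 genes measured. A gene was a member when its symbol was CDH followed by digits, or PCDH followed by letters and digits. Each gene was represented by its brightest probe set, the one with the highest mean over all arrays. The members comprised 4 type I classical cadherins, 11 type II classical cadherins, 5 other cadherins, 12 clustered protocadherins and 8 non-clustered protocadherins. Several familiar relatives, among them CDH2, CDH6, PCDH1, PCDH9, PCDH17, PCDH19 and the gamma protocadherins, were not analysed here.

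Cadherins are membrane proteins that hold neighbouring cells together by binding the same or a similar cadherin on the next cell in the presence of calcium. Classical cadherins connect through catenins to the actin cytoskeleton, and the exchange of one classical cadherin for another accompanies changes between epithelial and mesenchymal states. Protocadherins lack the catenin-binding tail. The clustered ones are encoded in tandem arrays of variable exons or single-exon genes, and individual cells choose among them by promoter methylation and CTCF-mediated looping, while the non-clustered ones act mainly in morphogenesis and in the nervous system.

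RNA was measured in rhesus macaque cells of 3 kinds that belong to one pedigree. Embryonic stem cells (ESCs) came from C3106, a male line, and C3806, a female line. The teratoma fibroblasts had been explanted from tumours that these lines formed in immune-compromised mice, with 5 cultures from line 3106 (TA31, TB31, TC31, TD31 and TE31) and 3 from line 3806 (TA38, TB38 and TC38). Skin fibroblasts were explanted from parents of the lines (M032, M088 and M106p1). The labels name no treatment, no engineered allele and no animal age for any source. Each of the 13 sources had 3 arrays that the labels call biological triplicates. Nothing in the labels says that they were separate derivations, so p-values from arrays measure only the spread between those samples, which may be technical.

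The values are log2 signals after RMA, so a difference of 1 is a 2-fold difference in signal. Levels of different genes come from different probes and were not compared with each other. The 95th percentile of the signals of 674 probe sets for viral genomes, which lay between 6.54 and 7.03 on the arrays used, served as a background level. Genes were called in limma at a log2 difference of at least 1 together with a p under 0.05 after Benjamini-Hochberg adjustment over all 14132 genes. In bulk cultures such as these, fewer cells of a type that expresses a gene cannot be told apart from less RNA of that gene per cell.

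The arrays C3806c, TB31c and M106p1f were left out because their profiles went against their labels. On C3806c the pluripotency gene POU5F1 was at 4.84, against 12.67 to 13.17 on the 5 other ESC arrays, and the fibroblast gene LUM was at 12.56. Over the 40 members its profile lay nearest to TC38, with a mean absolute log2 difference of 0.11, against 0.93 from its own source. TB31c lay nearest to the skin culture M106p1 (0.10, against 0.58 from TB31), and M106p1f lay nearest to the teratoma culture TD31 (0.08, against 0.49 from M106p1). In the 36 arrays kept, all 6 measured pluripotency markers were above the background level in both ESC lines and none was in any fibroblast culture. All 7 measured fibroblast markers were above it in every fibroblast culture, and 4 of the 7 were in both ESC lines.

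Of the 40 members, 14 were above the background level in every source, 17 in none and 9 in some. The source means of 26 members spanned less than 1 on the log2 scale, and those of 14 spanned 1 or more. For members above the background level in no source, a narrow span does not show steady expression. Of those above it in every source, PCDHA5 spanned less than 1. Its brightest probe set averaged 11.59 ± 0.35 in ESCs (SD, n = 2 lines). It averaged 11.62 ± 0.12 in teratoma fibroblasts (n = 8 cultures) and 11.44 ± 0.21 in skin fibroblasts (n = 3 cultures). By type, 9 of 11 type II cadherins and 5 of 12 clustered protocadherins were above the background level in no source. The heat map of source means shows a few rows with sharp contrasts among many even ones.

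**Figure D1:**
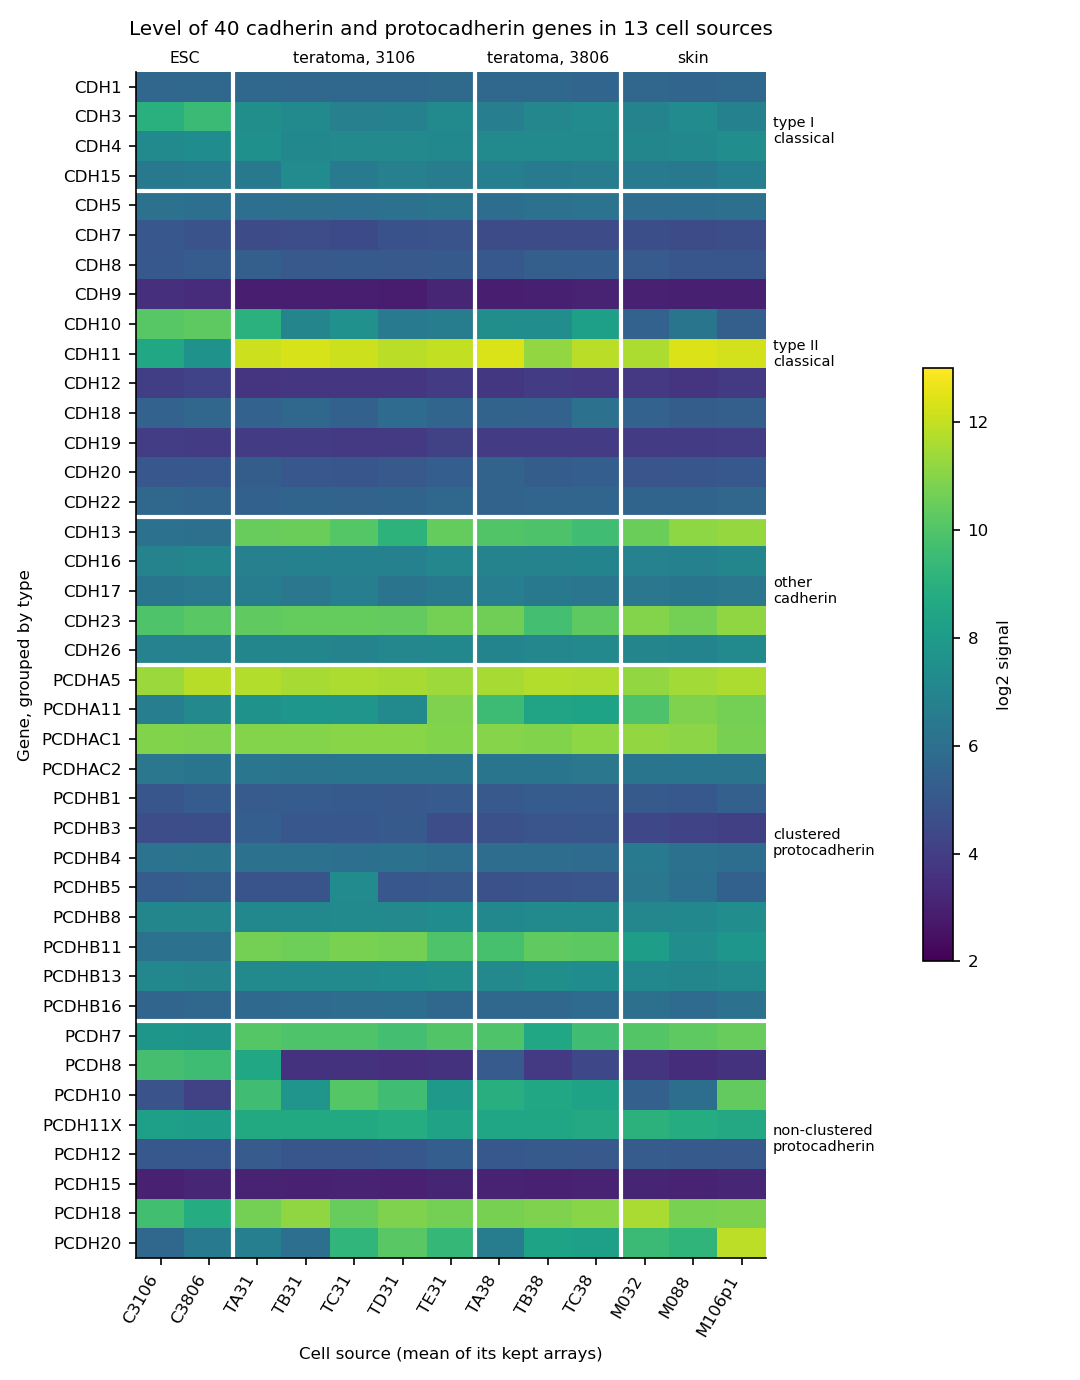
Mean log2 signal (colour) of each of the 40 genes (vertical axis, grouped by type) in each of the 13 cell sources (horizontal axis). CDH11, CDH13 and PCDHB11 are dim in both ESC lines and bright in all 8 teratoma cultures, whereas PCDH8 is bright in both ESC lines and, among fibroblasts, in TA31.

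ESCs were set against the fibroblasts of their own teratomas to ask which adhesion genes separate a pluripotent line from its differentiated progeny. In ESCs 3 of the 40 members were called higher (PCDH8, CDH10 and CDH3) and 6 were called lower (PCDH10, PCDHB11, CDH11, CDH13, PCDH7 and PCDH18) than in teratoma fibroblasts. Over all genes, 6.37% were called higher and 8.23% lower. The median difference was -0.08 over the members and 0.02 over all genes. Against skin fibroblasts, ESCs had 3 members called higher (the same 3 genes) and 7 called lower (CDH13, PCDH20, CDH11, PCDHA11, PCDH7, PCDH18 and PCDHB11), while 10.3% of all genes were called higher and 9.92% lower. The median difference from skin was -0.03 over the members and 0.03 over all genes. Both comparisons use the same ESC samples and are therefore not independent.

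**Figure D2:**
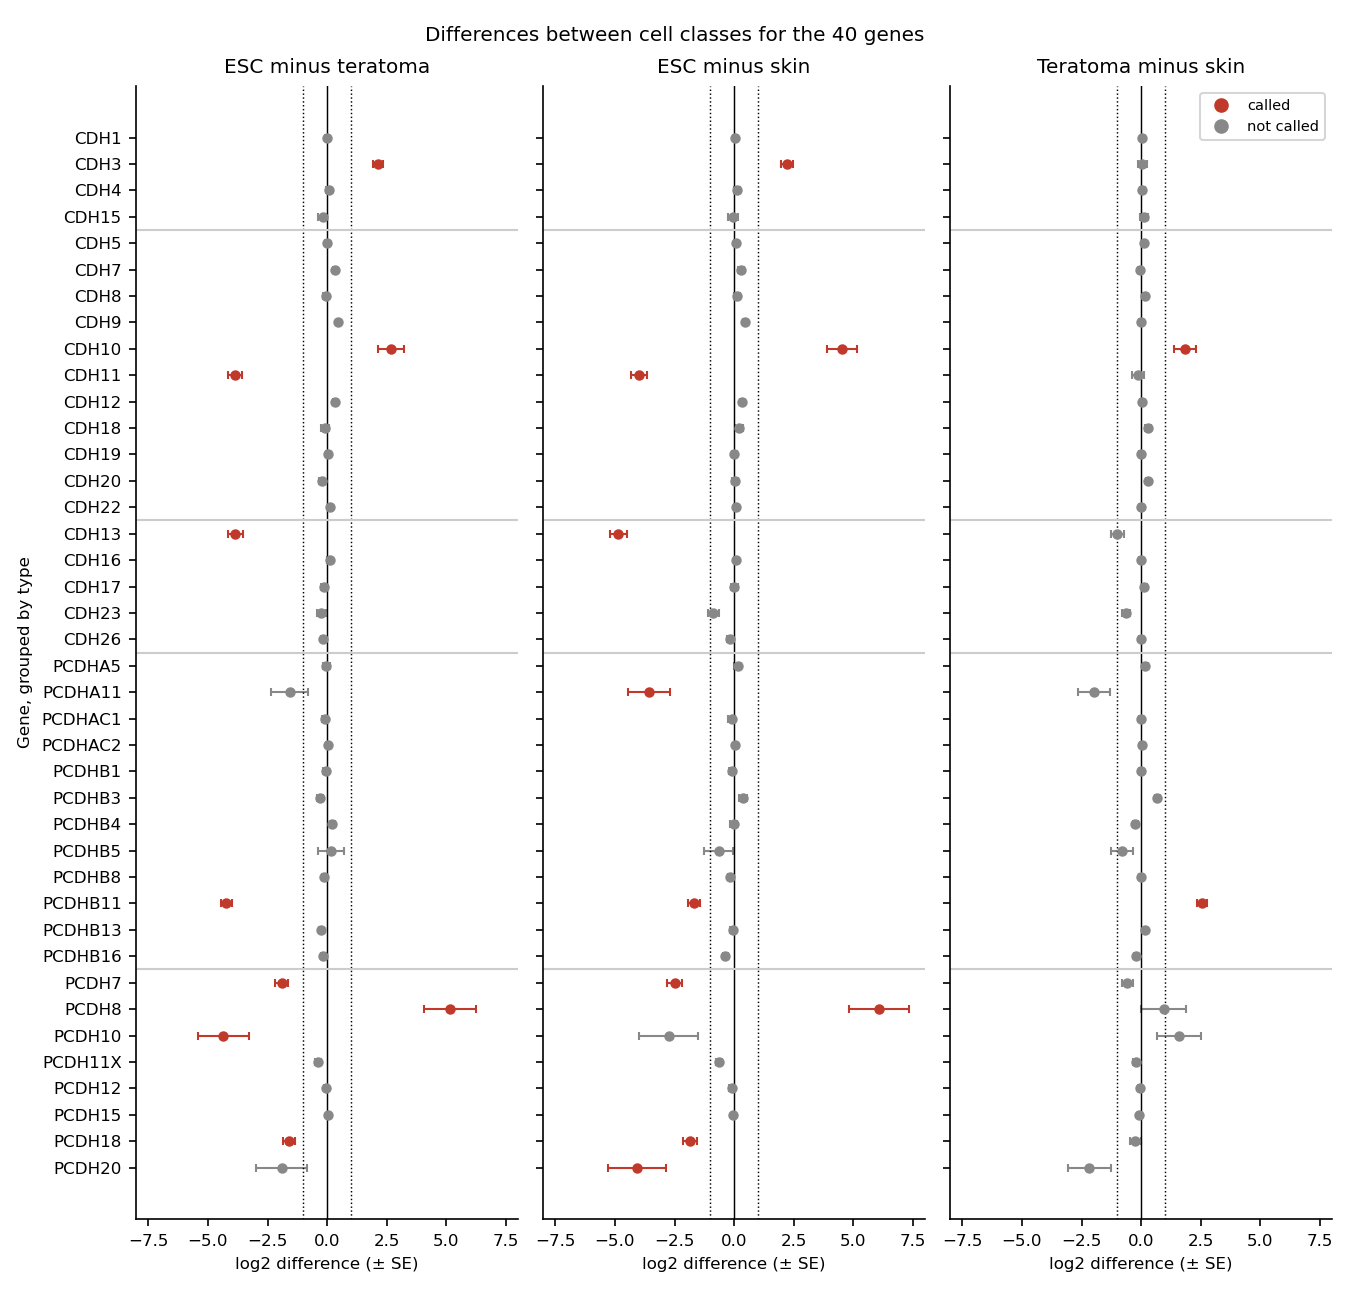
Log2 difference with its standard error (horizontal axes) for the 40 genes (vertical axis, grouped by type) in ESCs minus teratoma fibroblasts, ESCs minus skin fibroblasts and teratoma minus skin fibroblasts. Red points were called and grey points were not, dotted lines mark a log2 difference of 1 in either direction, and most genes lie near 0 in all 3 panels.

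Among the type I classical cadherins, CDH3, which encodes the epithelial and placental P-cadherin, was the member that rose in ESCs. Its signals were 8.53, 9.25 and 9.12 on the C3106 arrays and 10.12 and 8.83 on the C3806 arrays. Among teratoma cultures the means ran from 6.69 to 7.42 with a median of 7.16. The skin culture means were 6.93 in M032, 7.29 in M088 and 6.84 in M106p1. No ESC array overlapped any fibroblast array. The difference was 2.15 ± 0.21 from teratoma fibroblasts (SE; 4.45-fold; limma adjusted p = 1.45e-05) and 2.20 ± 0.25 from skin fibroblasts (limma adjusted p = 3.37e-05).

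CDH1, which encodes E-cadherin, the classical cadherin of epithelia and of ESC colonies, was below the background level everywhere. Its means were 5.66 ± 0.08 in ESCs (SD, n = 2), 5.68 ± 0.06 in teratoma fibroblasts (n = 8) and 5.64 ± 0.06 in skin fibroblasts (n = 3). It had a single probe set, and the epithelial adhesion gene EPCAM had signals of 10.75 to 11.48 on the 5 ESC arrays. Whether the probe set detects rhesus CDH1 mRNA was not tested. CDH3 and CDH1 are direct neighbours on chromosome 20 in RefSeq's T2T-MMU8v2.0 gene table.

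The other type I members stayed near the background level. CDH15, the muscle cadherin of myoblasts, averaged 6.51 ± 0.09 in ESCs, 6.70 ± 0.27 in teratoma fibroblasts and 6.57 ± 0.15 in skin fibroblasts, and was not called in any class comparison. Its highest culture was TB31 at 7.31, with 7.43 and 7.19 on its 2 kept arrays, and TB31 also had the highest mean over the 10 measured skeletal muscle markers (9.32, with 9 of 10 above the background level). TD31 had a muscle marker mean of 9.03, with 8 of 10 above it, and CDH15 at 6.79. The other 6 teratoma cultures had muscle marker means of 5.80 to 7.55. The part of muscle cells in the CDH15 signal was not tested.

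The type II cadherins CDH11 and CDH10 moved in opposite directions. CDH11 encodes OB-cadherin, the main type II cadherin of mesenchyme and osteoblasts. Its signals were 8.40, 7.38 and 9.88 on the C3106 arrays and 7.06 and 8.24 on the C3806 arrays. The teratoma cultures lay higher, at 11.23 to 12.39 with a median of 12.07. Skin culture means were 11.63 in M032, 12.42 in M088 and 12.24 in M106p1. The ESC arrays lay below every fibroblast array, with a wide spread among themselves. The ESC difference was -3.86 ± 0.30 from teratoma fibroblasts (SE; 14.6-fold; limma adjusted p = 2.28e-06) and -3.99 ± 0.35 from skin fibroblasts (limma adjusted p = 5.55e-06). The 2 other CDH11 probe sets gave -3.96 and -5.15 against teratoma fibroblasts.

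CDH10, a type II cadherin known mainly from the developing brain, had signals of 10.07, 11.50 and 8.87 on the C3106 arrays and 10.39 and 10.11 on the C3806 arrays. In teratoma cultures the mean was between 6.53 in TD31 and 9.03 in TA31, with a median of 7.41. Skin culture means were 5.45 in M032, 6.28 in M088 and 5.33 in M106p1, all below the background level. The order of source means was therefore ESCs, teratoma cultures and skin cultures without overlap, although the C3106d array lay below the TA31 arrays. ESCs exceeded teratoma fibroblasts by 2.68 ± 0.54 (SE; 6.42-fold; limma adjusted p = 0.00214) and skin fibroblasts by 4.51 ± 0.62 (limma adjusted p = 0.000146). With skin set at its background level, the ESC signal was at least 11-fold higher. CDH10 was represented by a single probe set.

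CDH5, the endothelial VE-cadherin, averaged 6.08 ± 0.07 in ESCs, 6.10 ± 0.09 in teratoma fibroblasts and 6.0 ± 0.08 in skin fibroblasts, below the background level in all 13 sources. The remaining 8 type II cadherins, CDH7, CDH8, CDH9, CDH12, CDH18, CDH19, CDH20 and CDH22, were likewise below it in every source. Their ranges over sources were 0.28 to 0.85. The plot of array signals shows the separation of the called class genes.

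**Figure D3:**
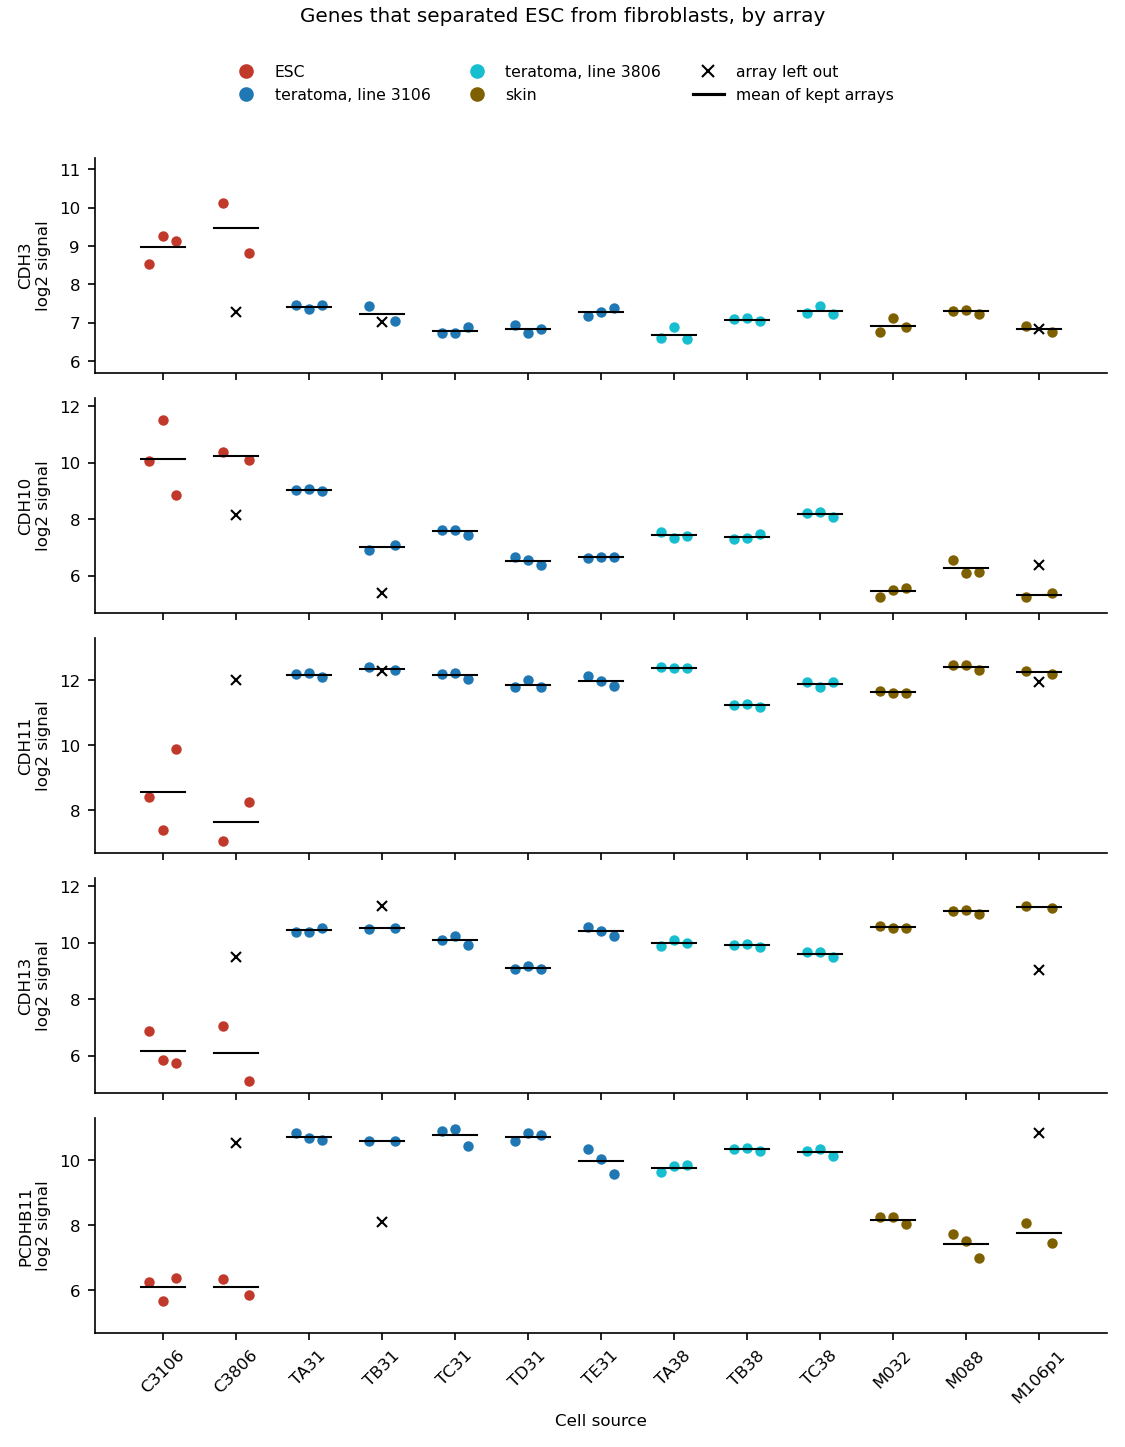
Log2 signal of CDH3, CDH10, CDH11, CDH13 and PCDHB11 (vertical axes) on every array of the 13 sources (horizontal axis), with black bars at the mean of the kept arrays and crosses for the arrays left out. For PCDHB11 the ESC arrays lie at 5.66 to 6.38, below all skin arrays, which in turn lie below all kept teratoma arrays.

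Among the other cadherins, CDH13 fell in ESCs against both kinds of fibroblast. It encodes T-cadherin, which is anchored to the membrane by a lipid tail, lacks an intracellular domain and binds adiponectin. Its signals were 6.89, 5.84 and 5.74 on the C3106 arrays and 7.05 and 5.12 on the C3806 arrays. Teratoma culture means ran from 9.12 to 10.51 with a median of 10.04, and skin culture means were 10.55 in M032, 11.11 in M088 and 11.27 in M106p1. The source means of the 3 cell kinds did not overlap. The difference was -3.85 ± 0.32 from teratoma fibroblasts (SE; limma adjusted p = 3.36e-06) and -4.86 ± 0.36 from skin fibroblasts (limma adjusted p = 1.87e-06). With the ESC lines set at their background level, CDH13 was at least 9.85-fold lower in ESCs than in teratoma fibroblasts and at least 19.3-fold lower than in skin fibroblasts. Its other probe set gave -4.25 and -5.09.

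CDH23, a long cadherin that forms tip links in inner-ear hair cells, averaged 10.07 ± 0.14 in ESCs, 10.35 ± 0.30 in teratoma fibroblasts and 10.96 ± 0.24 in skin fibroblasts. It was not called in these comparisons, with a difference of -0.88 ± 0.23 between ESCs and skin (limma adjusted p = 0.0081). Without M088 it was -1.01 and was called. Its 3 dimmer probe sets gave differences from skin of -0.18, 0.14 and 0.36. CDH16, CDH17 and CDH26 had ranges over sources of 0.30 to 0.49.

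Of the 12 clustered protocadherins, 2 were called in the class comparisons. Another 5 were above the background level in no source, so their even signals do not show steady expression. Between ESCs and teratoma fibroblasts 8.33% of the 12 were called, against 14.6% of all genes. Between ESCs and skin fibroblasts it was 16.7%, against 20.2% of all genes. Between teratoma and skin fibroblasts it was 8.33%, against 1.73%. PCDHB11, a beta-cluster gene that encodes a single-exon protocadherin, had signals of 6.27, 5.66 and 6.38 on the C3106 arrays and 6.34 and 5.86 on the C3806 arrays. The 8 teratoma cultures ran from 9.78 to 10.77 with a median of 10.46. Skin culture means were 8.17 in M032, 7.41 in M088 and 7.76 in M106p1. The arrays of the 3 cell kinds did not overlap. The difference of ESCs was -4.23 ± 0.23 from teratoma fibroblasts (SE; limma adjusted p = 1.36e-07) and -1.68 ± 0.26 from skin fibroblasts (limma adjusted p = 0.000375). With the ESC lines at their background level, the signal was at least 12.8-fold lower in ESCs than in teratoma fibroblasts and at least 2.1-fold lower than in skin fibroblasts. With all 39 arrays used, the difference from skin was -1.28 and was not called.

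PCDHA11, an alpha-cluster isoform, had source means of 6.72 in C3106 and 7.18 in C3806. Teratoma cultures ran from 7.28 to 10.88 with a median of 8.09, and skin cultures were at 9.92, 10.86 and 10.72 in M032, M088 and M106p1. Teratoma cultures thus covered the whole span between a level just above the ESC lines and the skin level. The difference was -3.55 ± 0.88 between ESCs and skin fibroblasts (SE; limma adjusted p = 0.00655) and -1.57 ± 0.77 between ESCs and teratoma fibroblasts (limma adjusted p = 0.131, not called). Without TE31 the teratoma comparison gave -1.24 and was called. The 2 dimmer PCDHA11 probe sets had means of 3.02 to 3.48 in all 3 cell kinds and gave differences from skin of -0.14 and -0.03.

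The brightest probe sets of the alpha-cluster genes PCDHA5 and PCDHAC1 had high signals in every source, and PCDHAC2 lay below the background level throughout. The other probe sets of these genes did not share the high signals. Their class means were 4.08 to 6.88 for PCDHA5 and 4.87 to 5.61 for PCDHAC1. Transcripts of the alpha cluster share their final exons, and the exons that each probe set matches were not analysed here. A probe set named for PCDHAC2, PCDHA5 and PCDHA11 together, which the rule does not admit, averaged 4.79 ± 0.40 in ESCs, 2.86 ± 0.25 in teratoma fibroblasts and 2.55 ± 0.03 in skin fibroblasts, all under the background level. In the beta cluster, PCDHB8 and PCDHB13 were above the background level in every source with ranges of 0.36 and 0.46, and PCDHB1, PCDHB3, PCDHB4 and PCDHB16 were above it in none. All 12 clustered genes, PCDHB11 and PCDHB5 included, lie on chromosome 6 in the RefSeq table, where PCDHB11 is flanked by PCDHB10 and PCDHB12. The beta genes are close paralogs, and cross-hybridisation between them was not tested.

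Of the 8 non-clustered protocadherins, 5 had source means that spanned 1 or more. PCDH8, a delta-2 protocadherin that acts in morphogenesis and at synapses, was called higher in ESCs than in either kind of fibroblast. Its signals were 9.92, 11.01 and 8.33 on the C3106 arrays and 8.74 and 10.40 on the C3806 arrays. Teratoma culture means ran from 3.53 to 8.59 with a median of 3.75, and skin culture means were 3.69 in M032, 3.45 in M088 and 3.63 in M106p1. Apart from TA31 at 8.59, every fibroblast culture was below the background level. The difference was 5.13 ± 1.09 from teratoma fibroblasts (SE; limma adjusted p = 0.003) and 6.07 ± 1.25 from skin fibroblasts (limma adjusted p = 0.00221). With every source set at no less than its background level, the differences were 2.69 and 2.92, and the ESC signal was at least 7.58-fold higher than in skin.

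PCDH7 and PCDH18 are members of the delta-1 and delta-2 subgroups. PCDH7 fell in ESCs, with line means of 7.84 in C3106 and 7.69 in C3806, against 8.58 to 10.08 in teratoma cultures (median 9.96) and 10.06, 10.26 and 10.45 in M032, M088 and M106p1. The difference was -1.90 ± 0.27 from teratoma fibroblasts (SE; limma adjusted p = 0.000205) and -2.49 ± 0.31 from skin fibroblasts (limma adjusted p = 7.33e-05). PCDH18 fell by 1.60 ± 0.26 against teratoma fibroblasts (limma adjusted p = 0.000457) and by 1.84 ± 0.29 against skin fibroblasts (limma adjusted p = 0.000416). Its means were 9.68 in C3106 and 8.80 in C3806, against 10.46 to 11.18 in teratoma cultures and 11.59, 10.79 and 10.85 in M032, M088 and M106p1. The source means of ESCs and fibroblasts did not overlap for either gene. The dimmer PCDH18 probe set gave -0.94 and -1.29, and the dimmer PCDH7 probe set, with means of 3.38 to 3.74, gave -0.22 and -0.37.

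The array C3106d stood apart among the ESC arrays for some of these genes, but not for all. It had the highest ESC signals of CDH11 (9.88), PCDH7 (9.28) and PCDH18 (10.38) and the lowest of CDH10 (8.87) and PCDH8 (8.33). Its CDH13 (5.74) and CDH3 (9.12) lay within the spans of the other ESC arrays, 5.12 to 7.05 and 8.53 to 10.12. Its PCDHB11, at 6.38, was close to the 6.34 of C3806a. The array C3106c, from the same line, had 7.38 for CDH11, 6.97 for PCDH7, 9.19 for PCDH18, 11.50 for CDH10 and 11.01 for PCDH8. On C3106d the fibroblast gene LUM was at 2.83, the lowest ESC value, and POU5F1 was at 13.17, the highest. The cause of the C3106d values was not tested.

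PCDH10, a delta-2 protocadherin known from axon guidance and as a gene often methylated in tumours, was below the background level in both ESC lines, at 4.80 in C3106 and 4.15 in C3806. Teratoma culture means ran from 7.73 to 10.12 with a median of 8.76. The skin cultures were split, with 10.34 in M106p1 against 5.38 in M032 and 5.97 in M088. The difference between ESCs and teratoma fibroblasts was -4.35 ± 1.06 (SE; limma adjusted p = 0.0069), and with ESCs at their background level the signal was at least 4.46-fold lower in ESCs. Without the C3806 line it was -4.02 and was not called. The difference from skin was -2.75 ± 1.22 (limma adjusted p = 0.0931, not called), without M032 it was -3.68 and was called, and without M106p1 it was -1.20. The dimmer PCDH10 probe set gave -0.43 against teratoma fibroblasts.

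PCDH20, a less studied non-clustered protocadherin, was also below the background level in both ESC lines, at 5.71 in C3106 and 6.51 in C3806. Teratoma culture means ran from 6.02 to 10.17 with a median of 8.30, and skin culture means were 9.48, 9.18 and 11.91 in M032, M088 and M106p1. ESC and skin arrays did not overlap, whereas teratoma cultures reached down into the ESC range. The difference was -4.08 ± 1.22 from skin fibroblasts (SE; limma adjusted p = 0.018), and -1.91 ± 1.06 from teratoma fibroblasts (limma adjusted p = 0.185, not called). The skin difference was not called without C3106 (-3.68), without C3806 (-4.48) or without M106p1 (-3.22). With ESCs at their background level the signal was at least 11.2-fold lower in ESCs than in skin fibroblasts.

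The brightest PCDH11X probe set averaged 8.20 ± 0.02 in ESCs, 8.61 ± 0.15 in teratoma fibroblasts and 8.83 ± 0.22 in skin fibroblasts, and was not called. Another PCDH11X probe set ran the opposite way, at 5.49 in ESCs, 3.86 in teratoma fibroblasts and 3.34 in skin fibroblasts, with differences of 1.55 and 2.15 (limma adjusted p over all probe sets = 0.0313 and 0.0115). All 3 levels lay under the background level. PCDH12 and PCDH15 were below the background level in every source. The plot of differences by probe set shows where a gene's probe sets fall together and where they do not.

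**Figure D4:**
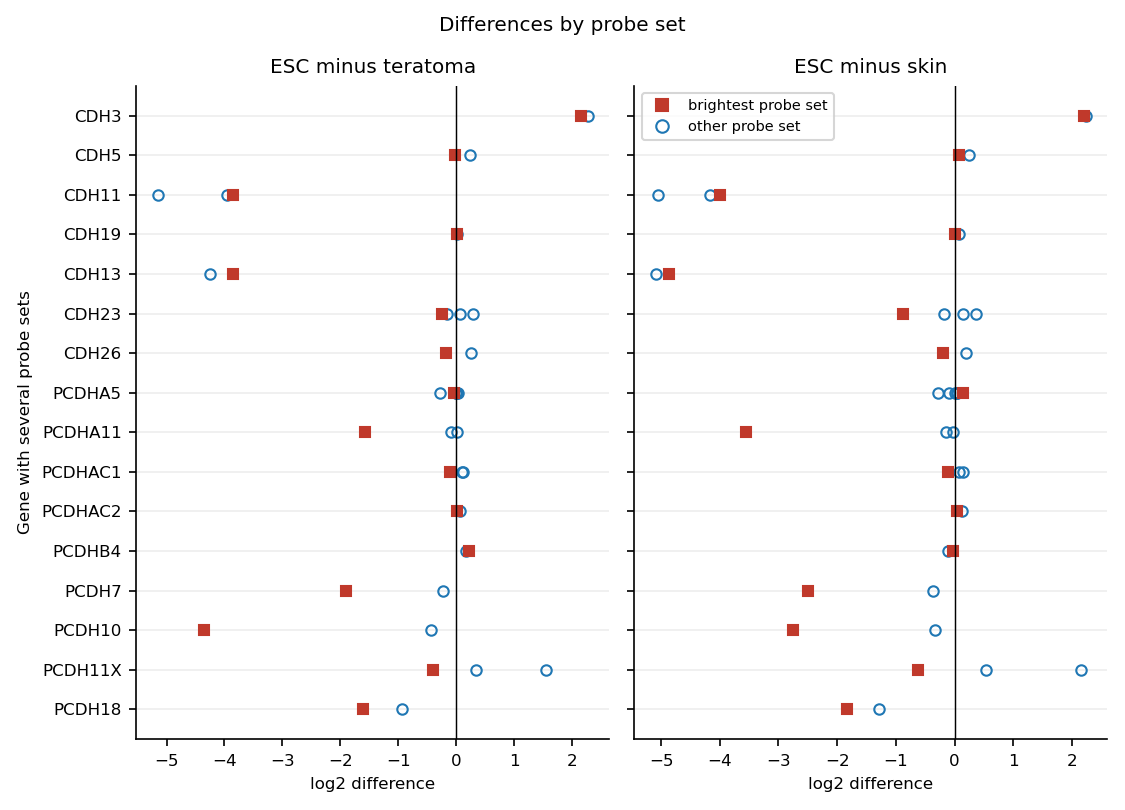
Log2 differences (horizontal axes) of ESCs minus teratoma fibroblasts and ESCs minus skin fibroblasts for every probe set of the 16 genes that have more than 1 (vertical axis). The probe sets of CDH3, CDH11 and CDH13 fall together, whereas the dimmer probe sets of PCDH10, PCDHA11 and PCDH7 lie near 0 and those of PCDH11X lie on the other side of 0 from the brightest.

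Teratoma fibroblasts were then set against skin fibroblasts to compare the 2 kinds of differentiated cells. PCDHB11 and CDH10 were called higher in teratoma fibroblasts, and no member was called lower, while 0.955% of all genes were called higher and 0.778% lower in limma. At an unadjusted p under 0.05 in limma there were 12 of the 40 members, against 3335 of all 14132 genes. PCDHB11 was higher by 2.55 ± 0.20 (SE; 5.86-fold; limma adjusted p = 0.000146), with every teratoma array above every skin array. CDH10 was higher by 1.83 ± 0.46 (limma adjusted p = 0.046), and its call was lost in 13 of the other settings, in which the difference was 1.65 to 2.03. These included leaving out any one of C3106, C3806, TB31, TC31, TA38, TB38, TC38, M032 and M106p1. With skin at its background level the CDH10 signal in teratoma fibroblasts was at least 1.66-fold higher.

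CDH13 lay close to the threshold, at -1.0 ± 0.27 (SE; limma adjusted p = 0.054), with all 8 teratoma culture means below the 3 skin means. Without TE31 it was -1.04 and was called. The beta-cluster gene PCDHB3 had an adjusted p of 0.0144 in limma with a difference of 0.68 ± 0.12, too small to be called, and its levels of 4.95 ± 0.21 in teratoma fibroblasts and 4.25 ± 0.14 in skin fibroblasts were under the background level. PCDH10 differed by 1.59 ± 0.91 (limma adjusted p = 0.334). Without M106p1 the PCDH10 difference was 3.15 and was called. PCDHA11 and PCDH20 differed by -1.98 ± 0.66 and -2.17 ± 0.91 and were not called (limma adjusted p = 0.0971 and 0.178). Without TE31 the PCDHA11 difference was -2.30 and was called, and without TC31 so was that of PCDHB5, at -1.05.

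The teratoma fibroblasts of the 2 lines and the lines themselves were compared in turn. Between teratoma fibroblasts of line 3806 and of line 3106 no member was called, against 0.0354% of all genes. There, 1 member had an unadjusted p under 0.05 in limma, against 655 of all 14132 genes. Between the ESC lines C3806 and C3106 no member was called, against 1.08% of all genes. An unadjusted p under 0.05 in limma was reached by 8 members, against 3312 of all 14132 genes. PCDH18, at 8.80 in C3806 and 9.68 in C3106, had the largest size among members past the adjusted p threshold, with a difference of -0.88 ± 0.19 (limma adjusted p = 0.00531), just short of the size needed. Without the arrays lettered b 3 members were called, and without those lettered c 2 were, with no share over all genes given for either. An interaction of line with cell kind was also fitted in limma. Each ESC line entered that fit as a single source mean, with no spread of its own. The fit therefore cannot decide whether the 2 lines depart from their own teratoma cultures by different amounts, and no conclusion is drawn from it.

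The 8 teratoma cultures also differed among themselves. An F test in limma on the arrays called 9 of 40 members, against 15.0% of all genes, and they were PCDH8, PCDH20, PCDHA11, PCDHB5, CDH10, PCDH10, PCDH7, CDH13 and CDH23. The median range over the cultures was 0.38 for members and 0.44 for all genes. The range of culture means was 3.60 for PCDHA11, which was above the background level in all 8 cultures, and 4.15 for PCDH20, or 3.52 with every culture set at no less than its background level. PCDH8 and PCDHB5 were above that level in 1 culture each, and their ranges of 5.07 and 2.59 became 1.94 and 0.66 in the same way. CDH23 passed with a range of 1.01, and PCDHB11 was just outside with 0.99. The plot of array signals for the culture genes shows that arrays of a culture stay close together while cultures lie far apart.

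**Figure D5:**
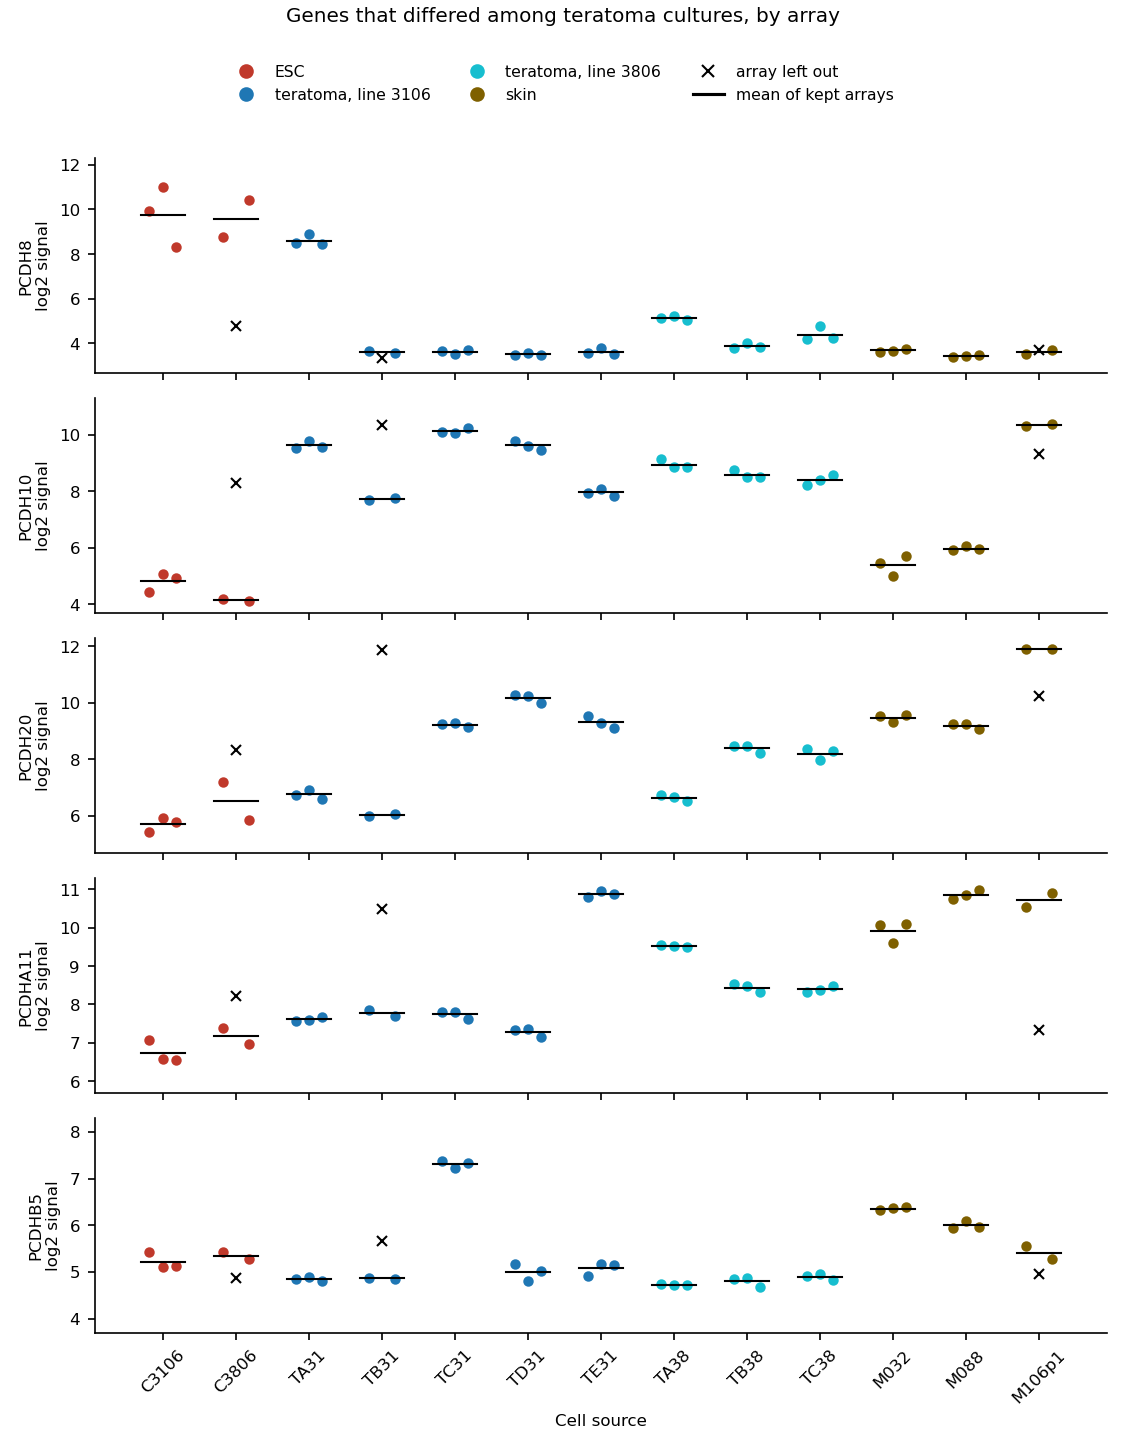
Log2 signal of PCDH8, PCDH10, PCDH20, PCDHA11 and PCDHB5 (vertical axes) on every array of the 13 sources (horizontal axis), with black bars at the mean of the kept arrays and crosses for the arrays left out. TA31 stands out for PCDH8, TC31 for PCDHB5 and TE31 for PCDHA11, and M106p1 lies above the other skin cultures for PCDH10 and PCDH20.

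Each culture was also set against the mean of the other 7, which gave 22 calls over the 8 cultures. These tests use the spread between arrays of a culture, and each comparison shares its cultures with the other comparisons. PCDH20 was called in 6 cultures. It was low in TA31, TB31 and TA38, at 6.76, 6.02 and 6.64, and high in TC31, TD31 and TE31, at 9.23, 10.17 and 9.31. TB38 and TC38 lay between them, at 8.39 and 8.20.

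TA31 had 3 members called, against 1.13% of all genes. PCDH8 had signals of 8.47, 8.88 and 8.43 on its arrays, against culture means of 3.53 to 5.15 in the other 7, with a difference of 4.62 ± 0.28 (SE; limma adjusted p = 3.25e-13). All 7 of those means were under the background level, and with them set at it the TA31 signal was at least 3.62-fold higher. CDH10 was higher by 1.77 ± 0.23 and PCDH20 lower by 1.52 on the log2 scale. PCDH8 and CDH10 were also high in the ESC lines. On the TA31 arrays POU5F1 was at 4.67 to 4.77 and EPCAM at 2.69 to 2.81. The mean over the 9 measured neural markers was 8.31 in TA31, with 6 above the background level, and 7.06 to 8.50 in the other 7 cultures, with 3 to 8 above it. Of these markers, SOX2 and PAX6 were at 10.33 and 10.29 in TA31. STMN2, SOX10 and ELAVL4 were under the background level there, at 6.30, 6.57 and 6.34. SOX2 was highest in the ESC lines, at 12.54 in C3106 and 12.41 in C3806. TA38 and TB38 had SOX2 at 9.37 and 10.90 and PAX6 at 11.05 and 9.58, with PCDH8 at 5.15 and 3.87. The parts of neural cells and of ESCs in the TA31 signals were not tested.

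TB31 had 3 members called lower, against 1.67% of all genes, with PCDH20 at -2.37 ± 0.17 (SE; limma adjusted p = 2.17e-11), PCDH10 at -1.30 ± 0.13 and PCDH8 at -1.08 ± 0.33. TC31 had 4, against 1.83% of all genes. Its beta-cluster gene PCDHB5 had signals of 7.37, 7.23 and 7.33, against means of 4.72 to 5.08 in the other 7 cultures, a difference of 2.42 ± 0.07 (limma adjusted p = 4.04e-20). With those 7 cultures set at their background level, the TC31 signal was at least 1.49-fold higher. PCDH10 and PCDH20 were higher in TC31 by 1.43 ± 0.11 and 1.30 ± 0.15, and PCDH8 was lower at -1.05 ± 0.28. In no other teratoma culture was PCDHB5 above the background level, and its skin means were 6.36, 6.0 and 5.41 in M032, M088 and M106p1.

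TD31 had 5 members called, against 3.43% of all genes. PCDH20 was higher by 2.38 ± 0.15 (SE; limma adjusted p = 1.1e-13), while PCDHA11 was at -1.34 ± 0.10, PCDH8 at -1.17 ± 0.28, CDH10 at -1.08 ± 0.23 and CDH13 at -1.02 ± 0.20. TE31 had 4, against 4.31% of all genes. The alpha-cluster gene PCDHA11 had signals of 10.81, 10.97 and 10.88 there, within the span of the skin arrays, and exceeded the other cultures by 2.77 ± 0.10 (limma adjusted p = 3.59e-19). PCDH20 was higher in TE31 by 1.39 ± 0.15, and PCDH10 and PCDH8 were each at -1.05.

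Among the cultures of line 3806, TA38 had 2, against 2.36% of all genes, with PCDHA11 higher by 1.22 ± 0.10 and PCDH20 at -1.65 ± 0.15 (SE; limma adjusted p = 9.47e-11 and 4.8e-10). TB38 had 1, against 1.51% of all genes, with PCDH7 at -1.33 ± 0.22 (limma adjusted p = 6.11e-05) and array signals of 8.70, 8.56 and 8.48. TC38 had none in limma, against 1.14% of all genes. Its unadjusted p was under 0.05 for 8 members, against 4565 of all 14132 genes. The PCDH8 calls in TB31, TC31, TD31 and TE31, where PCDH8 was under the background level, rest on the TA31 signal within the mean of the others. Without TA31 they were not called, nor were CDH10 (-0.84) and CDH13 (-0.97) in TD31 and PCDH10 (-0.94) in TE31. Without TA31, 2 calls appeared: CDH10 in TC38 at 1.09 ± 0.25 (limma adjusted p = 0.00181), and PCDH8 in TA38 at 1.37 ± 0.29 (limma adjusted p = 0.000945), where it was under the background level.

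The 3 skin cultures differed in PCDH10 and PCDH20 by an F test in limma on arrays, against 8.77% of all genes. PCDH10 had a range of 4.96 (limma adjusted p = 4.89e-20) and PCDH20 a range of 2.74 (limma adjusted p = 2.93e-11). M106p1 was the high culture for both, with PCDH10 at 10.29 and 10.39 and PCDH20 at 11.91 and 11.92 on its 2 kept arrays. The clustered genes PCDHA11 and PCDHB5 had ranges under 1 among skin cultures.

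Genes that work with cadherins were followed through a list of 32 measured partners. Against teratoma fibroblasts, 4 of the 32 were called higher in ESCs and 5 lower, with a median difference of 0.24, while 6.37% of all genes were called higher and 8.23% lower. DNMT3B, a DNA methyltransferase that acts on clustered protocadherin promoters in the mouse, averaged 12.43 ± 0.20 in ESCs and 7.11 ± 0.41 in teratoma fibroblasts and differed by 5.33 ± 0.28 (SE; limma adjusted p = 9.89e-08). ZEB2, a repressor of CDH1 transcription, averaged 4.75 ± 0.51 in ESCs and 9.38 ± 0.32 in teratoma fibroblasts and differed by -4.61 ± 0.29 (limma adjusted p = 3.78e-07). FAT4, a giant cadherin of planar cell polarity, differed by -3.24 ± 0.29, the repressor ZEB1 by -1.87 ± 0.33 and the actin linker LIMA1 by -1.81 ± 0.27. Among the 7 measured CDH1 repressors and mesenchymal factors, SNAI1, TWIST1, TWIST2 and TCF3 were not called, at -0.13, 0.07, 0.04 and 0.89. The alpha-catenin CTNNA2 was higher by 1.53 ± 0.17, but its means of 6.09 in ESCs and 4.51 in teratoma fibroblasts were both under the background level.

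Against skin fibroblasts, 9 of the 32 partners were called higher in ESCs and 5 lower, with a median difference of 0.44, while 10.3% of all genes were called higher and 9.92% lower. DNMT3B was higher by 6.15 ± 0.32, CTNNA2 by 1.84 ± 0.20 and TCF3 by 1.70 ± 0.20 (SE). ZEB2, FAT4 and ZEB1 were at -5.25 ± 0.33, -3.72 ± 0.33 and -2.10 ± 0.38. The CTNNA2 means, 6.09 in ESCs and 4.24 in skin fibroblasts, were under the background level. By group, catenins and actin linkers had 5 of 9 called higher and 1 lower. CDH1 repressors and mesenchymal factors had 1 of 7 called higher, which was TCF3, and 3 lower. Between teratoma and skin fibroblasts limma called none of the 32 in either direction. An unadjusted p under 0.05 was found for 13 of the 32, against 3335 of all 14132 genes.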

How the data were processed

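RNA from 39 samples of 13 cell sources was measured on single-colour oligonucleotide arrays. The authors deposited log2 signals for each probe set on each array, made with GCOS and RMA per the submitters' processing notes, with no version or setting stated there. RMA subtracts background, equalises the arrays' distributions and summarises probes, so differences at low signal are compressed. Gene names came from the platform annotation, which names 1 gene for 24956 probe sets, several for 361 and none for 27535 of 52865.

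The kept arrays of each source were averaged, and the 13 means were fitted in limma 3.58.1 (R 4.3.3) with 4 classes (ESCs, skin fibroblasts and the teratoma fibroblasts of either line) and 9 residual degrees of freedom. Teratoma fibroblasts are the mean of their 2 classes, so a fitted difference can depart slightly from that of the printed means. The interaction used 5 classes. Tests within a class used arrays grouped by source (23 residual degrees of freedom). All tests were two-sided and adjusted over all 14132 genes, with no filter on low values, so all 40 members were tested. The code was tested on simulated data. Lower bounds of folds set only the dimmer sources at their viral background level, and the brighter ones kept their own signal. Ranges and differences so described set each source at the higher of its own signal and its viral background level.

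Genes named with values were those called in a main comparison or among the teratoma cultures, textbook members, and the highest of each type. Members, lists and tests were chosen with earlier results of these data known. The arrays' number limits the precision. The replicate letters did not pair the samples: over 178 same-letter pairs the correlation of deviations ran from -0.54 to 0.6 with a median of 0.05. The alternatives covered the arrays left out, the classes, array-level fits, low signal, recentring, probe sets and sources left out in turn. No sequence was used.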

Additional observations from a re-analysis of the deposited data

Results flagged for a closer look

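In 12 of 32 tested groups of teratoma cultures, 1 culture lay far from the others by Dixon's criterion. The genes tested included those already called among these same cultures. Each gene was tested among all 8 cultures and again among the 5 of line 3106. The count therefore cannot be set against a chance rate. TA31 was far above the others for PCDH8, at 8.59, among all 8 cultures and among the 5 of line 3106, and TC31 was so for PCDHB5, at 7.31, in both groupings. TB31 was high for CDH15 at 7.31. TB38 was the low culture for CDH11 at 11.23, for CDH23 at 9.71 and for PCDH7 at 8.58, all among the 8 cultures. TE31 stood apart within line 3106 for 4 genes: it was high for PCDHA11 at 10.88, for CDH23 at 10.72 and for CDH5 at 6.25, and low for PCDHB11 at 9.98. The CDH5 value lies under the viral background level.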

How the results depend on the processing

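The members called between ESCs and either kind of fibroblast stayed within 1.5 times their number under every alternative run. Between teratoma and skin fibroblasts, where 2 members were called higher and 0 lower, 1 was called higher with all 39 arrays, with 5 classes, with arrays recentred on their median and without TB31 and TD31. With the replicate letter as a replicate block 4 were higher and 3 lower. That fit tested the classes against the spread between arrays of a source, so it changed the unit as well as adding the letters. Shares over all genes are not given for these alternatives, so their counts do not set the members apart. With the source as a random block 2 were lower, and 1 was lower among the 9973 genes above the viral level, 22 of them members. Leaving out each source in turn gave 1 to 2 higher and 0 to 2 lower. Between the ESC lines, leaving out each replicate letter in turn gave 0 to 3 calls in place of 0. The 22 calls of single teratoma cultures became 7 with all 39 arrays and 14 with TA31 left out, the second chosen after seeing the data. The replicate block gave 22 calls for single cultures and 10 among the 8 cultures, in place of 9. For the named genes, 1032 of 1077 values kept their side of the threshold, 23 lost the call, 22 gained it and 0 changed direction. Other probe sets of PCDH10, PCDH18, PCDH7 and PCDHA11, tried after seeing the data, lost calls of those genes. The causes were not tested. Only 2 ESC lines and 3 skin cultures were measured, and for members near the viral level, low signal limits what the arrays can show.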
